A study of Mus musculus with 6 samples.

Results

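Incomplete radiofrequency ablation (iRFA) heats part of a tumor and leaves a viable rim, and the RNA of such residual tumors was compared here with that of untreated tumors for 9 genes of necroptosis and of the extrinsic route to cell death: Fas, Tnfrsf10b, Fadd, Casp8, Cflar, Ripk1, Ripk3, Mlkl and Gsdme. They were chosen with earlier results of these data known and identified by symbol in the mouse gene annotation GENCODE release M21. All 9 were found among the 32110 genes measured. CT26, a colon carcinoma cell line of the BALB/c mouse, was implanted in the skin of the right flank of wild type male BALB/c mice, and treatment began at a longest diameter of about 0.8 cm. The 3 untreated tumors received no treatment, and their time of collection is not stated separately in the sources used here. The 3 iRFA tumors had an electrode advanced to the middle of their long axis and were held at a target of 70 °C for 1.5 to 2.0 min, and residual tissue was collected 3 days later. The age of the mice is not given in the sources used here, and each library is bulk RNA, so tumor cells and host cells of the residual tumor are mixed in every value.

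Extrinsic cell death starts at receptors of the tumor necrosis factor (TNF) family. Fas and TRAIL receptors recruit the adaptor FADD, which gathers caspase-8, and caspase-8 either cuts the executioner caspases or, paired with its catalytically dead relative cFLIP, keeps the cell alive. When caspase-8 is blocked, the kinases RIPK1 and RIPK3 bind each other through a shared motif (RHIM), and RIPK3 phosphorylates MLKL, which oligomerizes and opens the plasma membrane in necroptosis. Gasdermin E, cut by caspase-3, opens the membrane in another form of lytic death. RIPK3 is silenced in many cultured tumor lines, and macrophages are known to express both RIPK3 and MLKL.

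Every one of the 9 genes was detected. Expression is given in FPKM, which counts the fragments of a gene, divides them by the length of its transcript and by the fragments mapped in the library. FPKM is per length, so the levels of different genes can be set side by side. All 9 genes were above 0 in 6 of 6 libraries, Ripk3 and Mlkl included, and 8 of the 9 reached 1 FPKM in all 6. The exception was Gsdme, which reached 1 FPKM in 2 libraries, untreated replicates 1 and 2. Casp8 held the highest level and Mlkl the next in each of the 6 libraries, and Gsdme the lowest. Ripk3 followed as the third in untreated replicates 1 and 2, whereas Cflar was the third in the other 4 libraries, where Ripk3 was at the fifth or the seventh place.

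The libraries have to be described before any comparison, because the library labelled untreated replicate 3 stood with the iRFA libraries. Over the 15560 genes tested, those averaging 0.5 FPKM or more, its log2(FPKM + 1) values correlated at 0.983 to 0.987 with those of the iRFA libraries and at 0.801 to 0.807 with those of untreated replicates 1 and 2, which correlated at 0.983 with each other. It was nearer to the iRFA mean than to the mean of the other 2 untreated libraries in 13092 of these genes (84.1%) and in 9 of the 9 death genes. Several marker lists of other tissues moved along the same split, and others did not. The summed level of 8 mesothelial and simple epithelial markers was 589 and 540 FPKM in untreated replicates 1 and 2 but 1.53 FPKM in untreated replicate 3 and 0.873 to 1.22 FPKM after iRFA, and the keratin gene Krt19 had 257 and 239 FPKM in the former 2 libraries and 0 to 0.155 FPKM in the other 4. In the same order, 9 intestinal epithelial markers summed to 468, 440, 2.13 and 2.50 to 3.71 FPKM, and 8 fibroblast markers to 3276, 3833, 563 and 503 to 788 FPKM. The intestinal sum was mostly the simple epithelial keratins Krt8 (247 and 234 FPKM, and at most 0.122 FPKM in the other 4) and Krt18, whereas Cdx2, which defines intestinal epithelium, was at 0 in all untreated libraries and Cdh1 did not follow the split. The fibroblast sum was mostly 3 collagens. Of its other markers, Lum (91.3 and 105 FPKM, and 5.56 to 12.2 FPKM in the other 4) and Thy1 (43.1 and 54.2 FPKM, and 9.46 to 16.8 FPKM in the other 4) also followed the split. Dcn (91.2, 88.9, 85.5 and 61.5 to 96.3 FPKM) and Pdgfrb (27.5, 31.0, 28.8 and 20.4 to 26.3 FPKM) did not, and Pdgfra (13.9 and 16.5 FPKM, and up to 22.2 FPKM in the other 4) went the other way. The 12 macrophage markers were low in the same 2 libraries, with 1565, 1550, 3085 and 3406 to 3786 FPKM. With all 6 libraries, 11 of the 12 were higher after iRFA without overlap, beside 11.4% of all genes tested. The sums of 6 endothelial markers (32.6, 32.6, 38.8 and 29.0 to 39.4 FPKM) and 12 T and NK cell markers (49.5, 48.7, 28.8 and 32.0 to 53.2 FPKM) did not show the split, but single genes did, in both directions. Without untreated replicate 3, 2 endothelial markers were higher after iRFA and 2 lower without overlap. Of the T and NK cell markers 3 were higher and 6 lower, beside 41% and 36.5% of all genes tested. The 8 skeletal muscle markers set untreated replicate 3 apart from the iRFA tumors (148, 186, 0.741 and 28.7 to 45.1 FPKM). The sums of 8 keratinocyte markers (74.4, 296, 9.73 and 7.48 to 10.5 FPKM), 7 neutrophil markers (14.1, 20.6, 5.33 and 6.57 to 9.37 FPKM) and 6 B cell markers (5.43, 6.31, 3.96 and 3.04 to 5.14 FPKM) were highest in untreated replicates 1 and 2. In these 2 libraries the keratinocyte sum was mostly Krt14, at 65.2 and 198 FPKM. What part these other cells had in the values of the death genes was not tested, and in bulk tissue fewer cells of a type and less RNA per cell cannot be told apart. The fold changes of the 9 genes, their ratios and the medians of the gene lists are therefore given with all 6 libraries, without untreated replicate 3, and against untreated replicate 3 alone.

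Mlkl, Ripk3 and Casp8 had the largest differences between untreated replicates 1 and 2 and the iRFA libraries, with Ripk3 on the opposite side of the other 2, and their start regions are shown to let their sequences be compared. They are from RefSeq on GRCm38.p6, end just before the first base of an exon, run 5′ to 3′ on the strand of the gene, and carry in capitals each CpG, the dinucleotide at which mammalian DNA is methylated. Ripk3 is shown for chr14:55788866-55789107 on the minus strand, Mlkl for chr8:111338206-111338455 on the minus strand and Casp8 for chr1:58802252-58802501 on the plus strand, the last lying between the first and the second exon of longer transcripts in GENCODE.
Ripk3: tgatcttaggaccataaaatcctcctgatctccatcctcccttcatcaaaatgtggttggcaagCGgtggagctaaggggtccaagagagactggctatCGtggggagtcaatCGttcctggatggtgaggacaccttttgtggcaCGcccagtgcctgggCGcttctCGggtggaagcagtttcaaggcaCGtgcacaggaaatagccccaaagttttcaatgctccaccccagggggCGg
Mlkl: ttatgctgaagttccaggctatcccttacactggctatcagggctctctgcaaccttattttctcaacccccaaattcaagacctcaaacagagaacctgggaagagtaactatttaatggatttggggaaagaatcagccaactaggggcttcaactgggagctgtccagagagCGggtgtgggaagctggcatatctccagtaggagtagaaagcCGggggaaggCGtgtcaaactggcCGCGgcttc
Casp8: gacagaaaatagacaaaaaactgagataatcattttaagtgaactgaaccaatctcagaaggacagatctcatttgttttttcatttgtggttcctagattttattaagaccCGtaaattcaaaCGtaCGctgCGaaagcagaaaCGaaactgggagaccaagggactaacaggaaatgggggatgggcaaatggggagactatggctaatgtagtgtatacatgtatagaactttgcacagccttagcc
Windows from 250 bases before to 50 bases after the start were matched for 8 of the 9 genes. The Ripk3 window holds 10 CpG, the Mlkl window 7 and the Casp8 window 5, beside a median of 7 and quartiles of 3 and 20 over all 32851 windows. The Fadd window holds 22, that of Gsdme 24, and the 2 windows of Ripk1 hold 22 and 36. Windows were also searched on both strands for a pair of GAAA separated by any 2 bases, the core of the interferon-stimulated response element, which 3.44% of all windows contain, and for TTCNNNGAA, the gamma-activated site, which 8.30% contain. The first motif was found for Cflar and for 1 of the 2 Ripk1 windows, and the second for Fas and for the same Ripk1 window. Neither sequence of letters is in the windows of Ripk3, Mlkl, Casp8, Fadd or Gsdme.

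**Figure D1:**
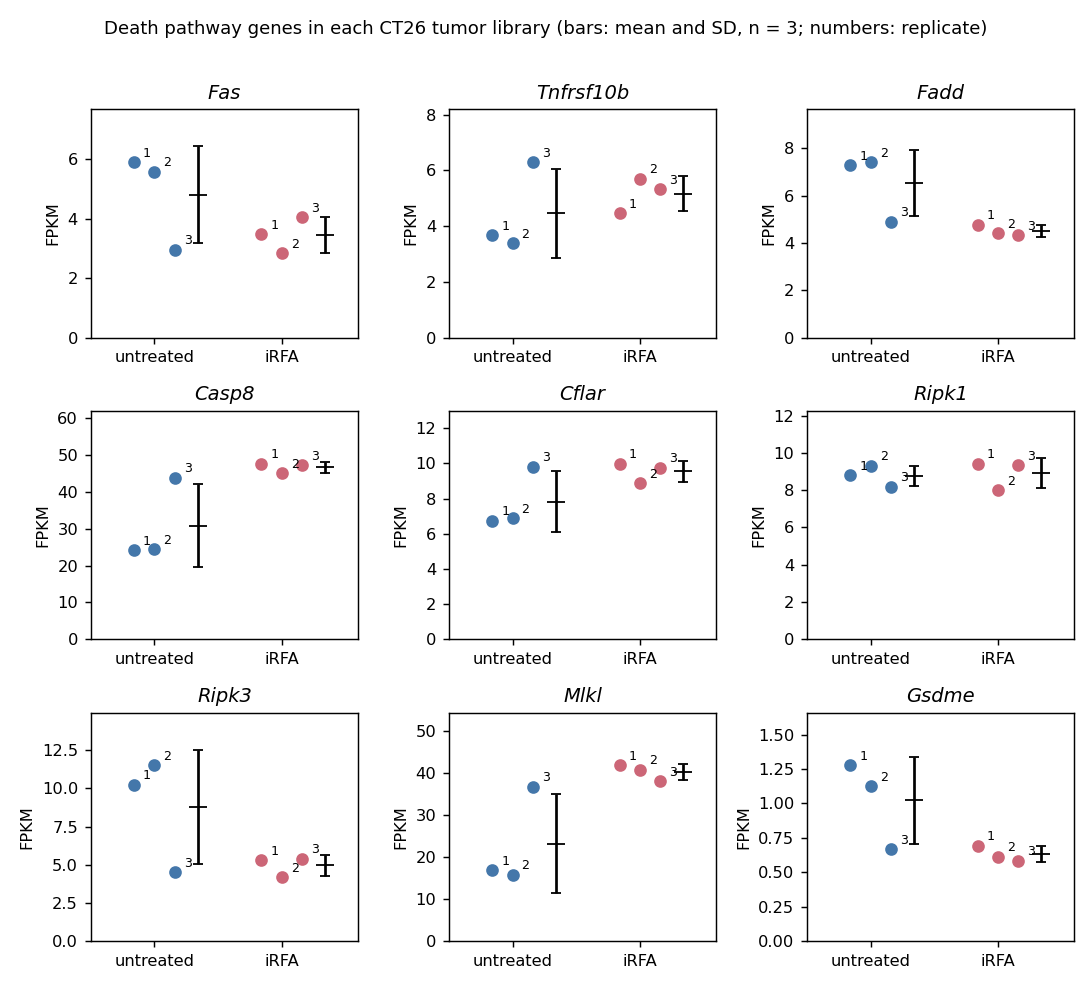
Level of each of the 9 death genes in FPKM (y axis, linear from 0, a scale per gene) in the 3 untreated and the 3 iRFA libraries (points, numbered by replicate), with the mean and SD of each group (bars, n = 3). Untreated replicate 3 lies with the iRFA points for Ripk3, Mlkl, Casp8, Fadd, Cflar, Fas and Gsdme, and Ripk1 stays between 7.99 and 9.42 FPKM in all 6 libraries.

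Among the receptors, Fas (ENSMUSG00000024778, chromosome 19: 34290666 to 34327772, plus strand, GRCm38) encodes the receptor of Fas ligand. Its level was 5.90, 5.57 and 2.95 FPKM in the untreated tumors, in the order of replicates 1, 2 and 3 that is kept for every gene, and 3.48, 2.83 and 4.03 FPKM in the iRFA tumors. Untreated replicate 3 lay inside the iRFA range, so the groups overlapped. The means of 4.81 ± 1.61 and 3.45 ± 0.603 FPKM (SD, n = 3 each) gave a log2 fold change of −0.35 ± 0.25 (SE, limma adjusted p = 0.351), on the log2(FPKM + 1) scale used throughout. Tnfrsf10b (ENSMUSG00000022074, chromosome 14: 69767472 to 69784411, plus strand) encodes the TRAIL receptor of the mouse that carries a death domain. It was at 3.68, 3.38 and 6.30 FPKM without treatment and at 4.48, 5.71 and 5.32 FPKM after iRFA. Here untreated replicate 3 was the highest of all 6 libraries and untreated replicate 2 the lowest. The log2 fold change was 0.21 ± 0.22 (SE, limma adjusted p = 0.513).

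Fadd (ENSMUSG00000031077, chromosome 7: 144577318 to 144582463, minus strand), the adaptor that links death receptors to caspase-8, was at 7.27, 7.42 and 4.90 FPKM in the untreated and at 4.77, 4.42 and 4.32 FPKM in the iRFA tumors. All 3 iRFA values were below the lowest untreated one, the nearest pair being 4.77 and 4.90 FPKM, and the groups overlapped once the libraries were scaled by median of ratios or by quantiles. The means were 6.53 ± 1.41 and 4.51 ± 0.238 FPKM (log2 fold change −0.43 ± 0.17 SE, limma adjusted p = 0.250). An antisense gene, Faddos, shares 239 exonic bases with Fadd. It was listed at 0 to 0.297 FPKM, and the strand setting of the libraries is not given in the sources used here, so reads of the pair in the shared bases cannot be told apart.

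Casp8 (ENSMUSG00000026029, chromosome 1: 58795374 to 58847503, plus strand) encodes the initiator caspase that also restrains necroptosis. Its level was 24.2, 24.5 and 43.9 FPKM without treatment and 47.7, 45.1 and 47.3 FPKM after iRFA. The 3 iRFA libraries were all above the highest untreated one, and untreated replicate 3 was 1.80-fold above the mean of the other 2 untreated libraries. The means of 30.9 ± 11.3 and 46.7 ± 1.40 FPKM differed by a log2 fold change of 0.64 ± 0.24 (SE, limma adjusted p = 0.250). Cflar (ENSMUSG00000026031, chromosome 1: 58711508 to 58758884, plus strand), whose product cFLIP pairs with caspase-8, starts upstream of Casp8 on the same strand, and 36489 bases separate the 2 genes. Cflar was at 6.74, 6.88 and 9.81 FPKM in the untreated and at 9.98, 8.88 and 9.75 FPKM in the iRFA tumors. Untreated replicate 3 lay within the iRFA range, and the log2 fold change was 0.27 ± 0.16 (SE, limma adjusted p = 0.281).

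Of the kinases, Ripk1 (ENSMUSG00000021408, chromosome 13: 34002363 to 34037147, plus strand), which sits between survival, apoptosis and necroptosis at the TNF receptor, varied least. Its level was 8.79, 9.30 and 8.18 FPKM without treatment and 9.42, 7.99 and 9.33 FPKM after iRFA. The groups were interleaved, with means of 8.76 ± 0.561 and 8.91 ± 0.802 FPKM (log2 fold change 0.02 ± 0.11 SE, limma adjusted p = 0.900), and the sign turned to −0.06 when the libraries were rescaled to equal sums. Exons of Ripk1 share 752 bases with Serpinb6a on the other strand and with Gm17084, and Serpinb6a was at 22.3 to 35.2 FPKM, so the share of reads counted for Ripk1 is uncertain there.

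Ripk3 (ENSMUSG00000022221, chromosome 14: 55784995 to 55788865, minus strand), the kinase that activates MLKL, had a level of 10.3, 11.5 and 4.50 FPKM in the untreated tumors and of 5.30, 4.17 and 5.40 FPKM after iRFA. Only untreated replicates 1 and 2 stood above the rest, and untreated replicate 3 was lower than 2 of the 3 iRFA tumors. The means of 8.76 ± 3.74 and 4.96 ± 0.685 FPKM gave a log2 fold change of −0.63 ± 0.33 (SE, limma adjusted p = 0.258). Mlkl (ENSMUSG00000012519, chromosome 8: 111311797 to 111338177, minus strand), the executioner of necroptosis, ran the opposite way. Mlkl was at 16.9, 15.8 and 36.8 FPKM in the untreated and at 41.9, 40.8 and 38.1 FPKM in the iRFA tumors. All 3 iRFA values were above every untreated value. Untreated replicate 3 was 2.25-fold above the mean of the other 2 untreated libraries and close under the lowest iRFA tumor. The means were 23.2 ± 11.8 and 40.3 ± 1.95 FPKM (log2 fold change 0.87 ± 0.32 SE, limma adjusted p = 0.250).

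Gsdme (ENSMUSG00000029821, chromosome 6: 50188888 to 50263862, minus strand), the gasdermin cut by caspase-3, was the least abundant of the 9 genes, at 1.28, 1.13 and 0.668 FPKM without treatment and 0.693, 0.614 and 0.583 FPKM after iRFA. Untreated replicate 3 lay between iRFA replicates 1 and 2. The log2 fold change of −0.30 ± 0.16 (SE, limma adjusted p = 0.265) understates the ratio of so low a gene.

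With all 6 libraries, no death gene and no gene at all passed the threshold. limma, two-sided with Benjamini-Hochberg adjustment over the 15560 genes tested, called 0 genes higher (0% of them) and 0 lower (0%) at an adjusted p under 0.05, beside 1236 higher (7.94%) and 1050 lower (6.75%) at an unadjusted p under 0.05. Of the 9 death genes, 3 were under an unadjusted p of 0.05, namely Mlkl (limma, unadjusted p = 0.0369), Casp8 (0.0409) and Fadd (0.0416). Values did not overlap between the groups in 3 of the 9, 2 of them higher after iRFA and 1 lower. Over all genes tested 21.9% were without overlap, 11.4% higher and 10.5% lower. The fold change was positive for 5 and negative for 4 of the 9 genes, with a median of 0.02, as over all genes (0.02). These p-values measure the spread between the libraries of each group, and nothing in the labels says that the 3 libraries of a group came from separate mice.

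Without untreated replicate 3, 8 of the 9 genes passed the same test, and most of the genes tested did so as well, with 33.9% of all genes tested called higher and 30.3% lower. Mlkl rose by a log2 of 1.25 ± 0.07 (SE, limma adjusted p = 5.1e-05), Casp8 by 0.91 (0.05, adjusted p = 6.7e-05), Tnfrsf10b by 0.44 (0.11, adjusted p = 0.0143) and Cflar by 0.43 (0.07, adjusted p = 0.00331). A kinase, a receptor, an adaptor and a gasdermin changed the other way. Ripk3 fell by 1.00 ± 0.12 (SE, limma adjusted p = 8.77e-04), Fas by 0.61 (0.13, adjusted p = 0.00834), Fadd by 0.60 (0.07, adjusted p = 7.56e-04) and Gsdme by 0.43 (0.09, adjusted p = 0.00773). Ripk1 alone among the 9 did not pass, at −0.02 ± 0.09 (SE, limma adjusted p = 0.838). The same 8 genes were without overlap, 4 higher and 4 lower, beside 41% and 36.5% of all genes tested.

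Against untreated replicate 3 alone, the differences of these genes were small. The log2 fold changes were 0.13 for Mlkl (standard error 0.08), 0.09 for Casp8 (0.06), 0.11 for Ripk3 (0.17), 0.11 for Ripk1 (0.12) and 0.16 for Fas (0.19). Those of Cflar, Gsdme, Fadd and Tnfrsf10b were −0.04, −0.03, −0.10 and −0.25. This fit takes the spread of the lone untreated library to be that of the iRFA libraries, and it called 0 of the 9 genes, beside 1 gene higher (0.00643%) and 0 lower among all genes tested (514 and 542 at an unadjusted p under 0.05). The signs of Ripk3, Fas, Cflar and Tnfrsf10b differed from those with all 6 libraries.

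**Figure D2:**
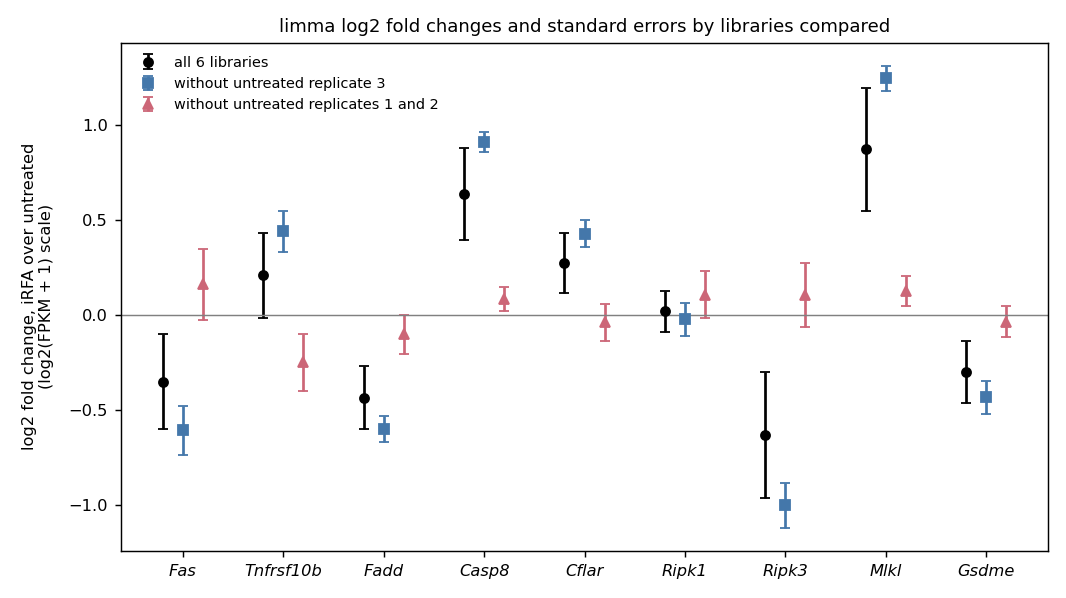
log2 fold change of iRFA over untreated tumors (y axis, log2(FPKM + 1) scale) with its standard error from limma for each of the 9 genes (x axis), with all 6 libraries (circles), without untreated replicate 3 (squares) and without untreated replicates 1 and 2 (triangles). Mlkl lies at 0.87, 1.25 and 0.13 in that order, Ripk3 lies below 0 with the first and the second set of libraries and at 0.11 with the third, and Ripk1 stays near 0 in each.

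Ratios of 2 genes within a library are not changed by any common factor for that library, and 3 were compared, each by an exact two-sided permutation test of the log2 ratio, whose smallest p with 3 libraries against 3 is 0.1. The ratio of Mlkl to Ripk3, executioner to activating kinase, was 1.65, 1.38 and 8.17 in the untreated and 7.89, 9.80 and 7.06 in the iRFA tumors. Untreated replicate 3 was thus the second highest of all 6 libraries (mean log2 difference 1.63, exact p = 0.3, adjusted p = 0.3 over the 3 ratios). Ripk3 to Ripk1, the kinase pair of the necrosome, was 1.17, 1.24 and 0.550 without treatment and 0.563, 0.522 and 0.578 after iRFA. Ripk3 exceeded Ripk1 in untreated replicates 1 and 2, and Ripk1 exceeded Ripk3 in the other 4 libraries (mean log2 difference −0.74, exact p = 0.3, adjusted p = 0.3). The bases that Ripk1 shares with Serpinb6a limit this ratio as well. The ratio of Cflar to Casp8, the restraint against the caspase, was 0.279, 0.281 and 0.223 in the untreated and 0.209, 0.197 and 0.206 in the iRFA tumors. It was the one ratio of the 3 whose groups did not overlap, with untreated replicate 3 between the other untreated libraries and the iRFA libraries (mean log2 difference −0.35, exact p = 0.1, the smallest possible, adjusted p = 0.3). Without untreated replicate 3 the differences were 2.44, −1.12 and −0.46 for the 3 ratios in this order, and against that library alone 0.00096, 0.0088 and −0.13.

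**Figure D3:**
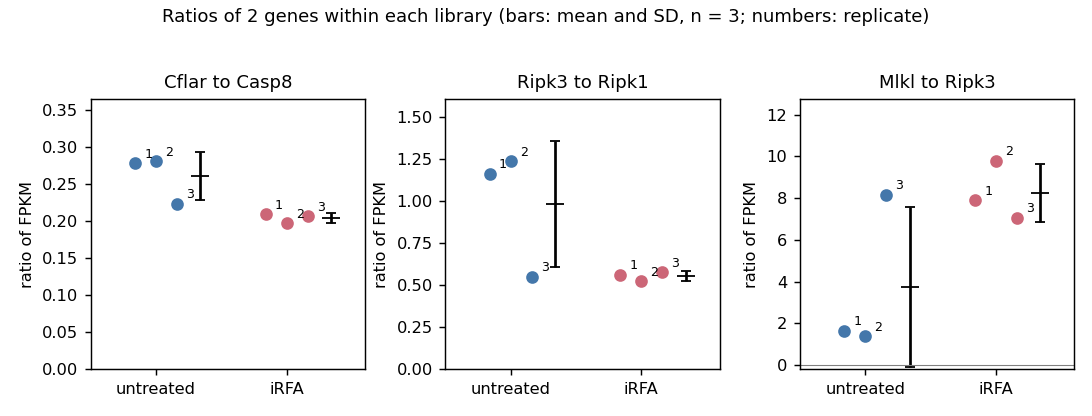
Ratio of FPKM of 2 genes within each library (y axis, linear) for Cflar to Casp8, Ripk3 to Ripk1 and Mlkl to Ripk3 in the untreated and iRFA libraries (points, numbered by replicate), with the mean and SD of each group (bars, n = 3). In the right panel untreated replicate 3, at 8.17, lies among the iRFA libraries at 7.06 to 9.80, and the lower SD bar of the untreated group passes below 0 because its 3 values are 1.65, 1.38 and 8.17.

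Genes whose profile over the 6 libraries was most like that of Ripk3 or Mlkl were looked for by the Pearson correlation of log2(FPKM + 1). For Ripk3 they were Fam174b, Akap17b and Pik3r3, a regulatory subunit of phosphoinositide 3-kinase, at r of 0.9983 to 0.9995. For Mlkl they were Milr1, an inhibitory receptor of mast cells, Gna15, a G protein subunit of blood cells, and Naca, a ribosome-associated chaperone subunit, at r of 0.9996 to 0.9998. Of the 15560 genes tested, 137 correlated above 0.99 with Ripk3 and 768 with Mlkl, over 6 points of which untreated replicates 1 and 2 stood apart from the other 4. Among the 9 genes, Mlkl and Casp8 correlated at 0.99 over the 6 libraries and Mlkl and Ripk3 at −0.97, which describes the same split.

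Further genes were taken from 11 lists, of the route, of p53 targets and of interferon-induced genes. Several lists also hold genes among the 9, which are thus counted again. In these lists limma called 0 genes in either direction with all 6 libraries. For their counts without overlap, the shares over all genes tested are 11.4% (higher) and 10.5% (lower), or 41% and 36.5% without untreated replicate 3. Their median log2 fold changes, given for all 6 libraries, without untreated replicate 3 and against untreated replicate 3 alone, stand beside 0.02, 0.04 and −0.0043 over all genes tested. Of 6 death ligands 4 could be tested, and 0 were without overlap (1 higher and 2 lower without untreated replicate 3, medians −0.12, −0.23 and 0.12). Tnf was at 1.80, 1.74 and 2.62 FPKM in the untreated and 2.21, 3.28 and 2.75 FPKM in the iRFA tumors, and Fasl, the ligand of Fas, at 1.34, 1.20 and 0.848 against 0.849, 1.06 and 1.49 FPKM. Both groups overlapped for each. Tnfsf10, the gene of TRAIL, averaged 3.88 ± 1.72 against 2.65 ± 0.859 FPKM (SD, n = 3 each) and Tnfsf12, the gene of TWEAK, 17.1 ± 2.72 against 14.4 ± 2.24 FPKM. Of 9 death receptors and decoys, Tnfrsf23, a decoy receptor for TRAIL in the mouse, was the only one without overlap, at 6.92, 7.96 and 4.71 against 3.59, 4.16 and 3.60 FPKM. The list had 3 positive and 6 negative fold changes. Its median was −0.35 with all 6 libraries and −0.61 without untreated replicate 3 (3 higher and 6 lower without overlap). Both are the values of Fas, itself a gene of this list. Against untreated replicate 3 alone the median was −0.0066.

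Of 25 adaptors and parts of the TNF receptor complex, 1 was higher and 5 were lower without overlap (12 and 6 without untreated replicate 3, medians 0.02, 0.09 and −0.036). The higher one was Birc2, the gene of the ubiquitin ligase cIAP1, at 13.3 ± 1.02 without treatment and 16.1 ± 1.85 FPKM after iRFA. The lower ones included Fadd, Tab1 at 11.4 ± 0.700 against 10.4 ± 0.230 FPKM, and both Rnf31 and Sharpin, subunits of the linear ubiquitin ligase that acts in the complex. Sharpin was at 12.2, 13.9 and 9.01 FPKM in the untreated and 5.79, 7.80 and 7.99 FPKM in the iRFA tumors, and Rnf31 averaged 7.40 ± 0.249 against 6.59 ± 0.299 FPKM. Rbck1, the remaining subunit of the ligase, did not share their direction, at 22.5, 21.8 and 33.2 against 30.1, 33.4 and 29.3 FPKM. The 4 RHIM proteins overlapped between the groups with all 6 libraries, and without untreated replicate 3 only Ripk3 did not (medians 0.02, −0.036 and 0.11). Zbp1, a sensor of left-handed nucleic acid that binds RIPK3, was at 22.8, 15.8 and 21.3 against 20.9, 21.4 and 25.8 FPKM, and Ticam1, the adaptor of Toll-like receptor 3, at 5.54 ± 0.611 against 5.65 ± 0.198 FPKM. Unlike Ripk3, Zbp1 did not set untreated replicates 1 and 2 apart from the other 4 libraries.

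Among 15 partners of the necrosome, 3 were higher and 2 lower without overlap (7 and 4 without untreated replicate 3, medians 0.19, 0.24 and 0.07). Hsp90aa1, a chaperone of RIPK3 and MLKL, was at 84.0, 84.4 and 158 FPKM without treatment and at 165, 211 and 188 FPKM after iRFA. The TAM receptor kinases were not alike. Axl averaged 118 ± 14.4 against 142 ± 5.86 FPKM, whereas Tyro3 was lower without overlap, at 17.8, 18.6 and 7.43 against 6.57, 7.33 and 6.56 FPKM, and Mertk overlapped, at 8.79, 8.17 and 30.1 against 23.3, 26.2 and 26.5 FPKM. The other lower gene was Stub1, a ubiquitin ligase that acts on RIPK3, at 64.0 ± 8.67 against 54.4 ± 1.64 FPKM. Its margin was narrow, with untreated replicate 3 at 56.7 and iRFA replicate 2 at 56.2 FPKM. For Axl, untreated replicate 3 was at 134 and iRFA replicate 1 at 137 FPKM. Of 11 caspases, with Cflar counted among them, 10 could be tested, and 3 were higher without overlap and 0 lower (5 and 4 without untreated replicate 3, medians 0.20, 0.24 and 0.05). Casp1, the inflammatory caspase, was at 33.2, 32.3 and 39.1 against 50.1, 42.9 and 54.5 FPKM, and Casp12 averaged 13.8 ± 0.466 against 17.0 ± 2.11 FPKM. Of 10 gasdermins and other pore formers found, 4 could be tested, and Mlkl was the only one without overlap (1 higher and 2 lower without untreated replicate 3, medians −0.06, −0.08 and 0.01).

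Of 16 BCL2 family genes tested, 5 were higher and 2 lower without overlap (7 and 6 without untreated replicate 3, medians 0.01, 0.07 and −0.02). Bid, which caspase-8 cuts to pass the death signal to mitochondria, was at 7.56, 7.53 and 12.2 FPKM in the untreated and 14.3, 14.2 and 12.3 FPKM in the iRFA tumors. Bcl2l1, the gene of BCL-XL, averaged 11.7 ± 1.03 against 13.7 ± 0.325 FPKM. The survival genes Bcl2a1b and Bcl2a1d averaged 32.8 ± 15.3 against 65.8 ± 5.34 and 8.84 ± 0.887 against 14.7 ± 0.726 FPKM, but their paralogs are nearly identical and may share reads. The survival gene Bcl2 was lower without overlap, at 4.68, 4.46 and 3.31 against 2.92, 2.89 and 3.28 FPKM, as was Pmaip1, the gene of the death-promoting protein NOXA. Of 15 genes of the apoptosome and the inhibitors of apoptosis, 3 were higher and 3 lower without overlap (8 and 4 without untreated replicate 3, medians 0.25, 0.30 and 0.02). Apaf1, the scaffold of caspase-9, was at 3.57, 4.09 and 10.1 against 10.9, 10.2 and 10.9 FPKM. Naip2 averaged 4.43 ± 2.20 against 8.42 ± 0.387 FPKM, and Dffa, the inhibitor of the apoptotic nuclease, 7.23 ± 0.621 against 6.29 ± 0.221 FPKM. The Dffa groups nearly touched, with untreated replicate 3 at 6.51 and iRFA replicate 1 at 6.50 FPKM. For Bid and Apaf1, untreated replicate 3 was again nearer to the iRFA libraries than to the other untreated ones.

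Of 16 p53 targets, a list that includes Fas and Tnfrsf10b, 1 was higher and 2 lower without overlap (4 and 9 without untreated replicate 3, medians −0.20, −0.25 and −0.08). Pmaip1 was at 9.23, 7.68 and 1.26 FPKM in the untreated and 1.25, 1.07 and 1.26 FPKM in the iRFA tumors, where the value of untreated replicate 3 exceeded the highest iRFA value only in later digits. Zmat3 averaged 4.42 ± 0.445 against 3.74 ± 0.111 FPKM and Aen 6.90 ± 0.898 against 8.91 ± 0.185 FPKM. Of 20 interferon-induced genes, 7 were higher and 1 lower without overlap (11 and 4 without untreated replicate 3, medians 0.35, 0.32 and 0.13). Isg15 averaged 35.2 ± 1.42 against 48.4 ± 3.48 FPKM, Ifit2 13.6 ± 2.34 against 20.3 ± 2.91, Gbp3 40.1 ± 4.95 against 54.7 ± 7.04 and Bst2 166 ± 65.5 against 251 ± 10.9 FPKM. The margin was narrow for Bst2, with untreated replicate 3 at 241.6 and iRFA replicate 2 at 243.5 FPKM. Fold changes were positive for 15 of the 20 genes in each of the 3 comparisons, which share the iRFA libraries.

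**Figure D4:**
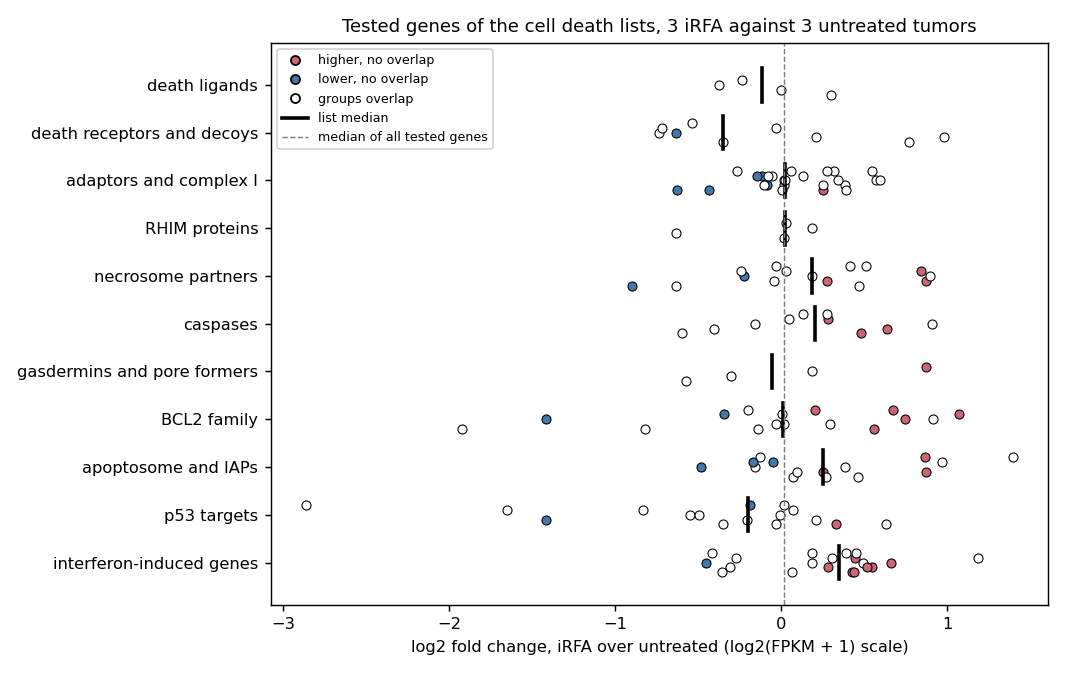
log2 fold change of iRFA over untreated tumors (x axis, log2(FPKM + 1) scale, all 6 libraries) for the tested genes of each of the 11 cell death lists (y axis, 1 point per gene), with the list median (black bar) and the median of all tested genes (dashed line at 0.02). Filled points are genes whose groups did not overlap, and the list medians run from −0.35 for death receptors and decoys to 0.35 for interferon-induced genes.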

How the data were processed

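Bulk RNA of 3 untreated and 3 iRFA tumors, grouped by GEO's labels, was used. Before deposit the authors ran FastQC on the reads, HISAT2 for alignment against GRCm38 and StringTie for the FPKM values per gene. Program versions are not given in the sources used here. The paper names an RNA purification kit and the labels Trizol. The files hold no counts, so the depth is unknown. Steps between low values (under 0.3 FPKM) gave relative depths of 1.00 to 1.10, and FPKM sums ran from 313940 to 345320.

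Log2(FPKM + 1) of the 15560 genes averaging 0.5 FPKM or more was compared by limma 3.58.1 in R 4.3.3 with a variance trend and no covariates. Tests were two-sided and adjusted by Benjamini-Hochberg over all of them (threshold 0.05), and 16550 genes were not tested. The script was tested on simulated data with independent noise for each gene, which lack the split among the untreated libraries. Exact permutation tests were run in Python 3.11.15 (numpy 2.4.6, scipy 1.17.1, pandas 2.3.3) and figures drawn with matplotlib 3.10.9. Symbols and positions are from GENCODE M21 on GRCm38, promoter windows from RefSeq.

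Besides the 9 genes, the text names up to 4 genes of highest mean FPKM per list among those without overlap, or 2 where none was, and Fasl, Tnf, Tnfsf10, Zbp1 and Ticam1. Krt8, Krt14, Krt18, Krt19, Cdx2, Cdh1, Dcn, Lum, Thy1, Pdgfra, Pdgfrb, Rbck1, Tyro3, Mertk, Bcl2, Serpinb6a, Gm17084 and Faddos were named after their values were seen. The members and lists were chosen with earlier results of these data known. Alternatives were a pseudocount of 0.1, no filter, a filter at 1 FPKM, 3 scalings (equal sums of 1000000, median of ratios, quantiles), a replicate block, limma without trend and each library left out.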

Additional observations from a re-analysis of the deposited data

How the results depend on the processing

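The comparison without untreated replicates 1 and 2 was chosen after seeing the data. limma called 0 genes in either direction under all settings except 2. Leaving out 1 library in turn gave 0 to 5269 genes higher and 0 to 4711 lower, the highest counts being those without untreated replicate 3, and without untreated replicates 1 and 2 it called 1 gene higher. Of the 9 death genes, 2 to 4 were higher and 1 to 4 lower without overlap when 1 library was left out, the highest again without untreated replicate 3, with 2 lower without iRFA replicate 1. None (0) was lower without overlap after median-of-ratios or quantile scaling, and 2 were without untreated replicates 1 and 2. Of the 9 log2 fold changes, 118 values under the alternatives kept their direction and side of the threshold, 8 passed it only without untreated replicate 3, and 8 turned in direction. These were Ripk1 at −0.058 with equal sums, −0.023 without untreated replicate 3, −0.017 without iRFA replicate 1 and −0.011 without iRFA replicate 3 (−0.023 to 0.090 over all libraries left out in turn), and, without untreated replicates 1 and 2, Ripk3 at 0.11, Fas at 0.16, Cflar at −0.038 and Tnfrsf10b at −0.25. The Ripk3 to Ripk1 log2 ratio turned to 0.0088 in the same setting. Of the list medians, 78 stayed within the spread between replicates and 10 did not, 6 of them against untreated replicate 3 alone. That spread includes the split among the untreated libraries, which widens it, so staying within it does not show that a median is stable. The cause of the changes under these settings was not tested.

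Replicate numbers are shared between the groups, and deviations of same-numbered libraries correlated at −0.09, −0.11 and −0.23. The untreated deviations mostly followed the split among the untreated libraries, so this check cannot decide whether same-numbered libraries were paired. With the replicate number as a block, limma called 0 genes higher and 0 lower (646 and 510 at an unadjusted p under 0.05), and the ratios kept their differences, with exact sign-flip p-values of 0.25 to 0.5, where 0.25 is the smallest possible. No scaling moved the median log2 fold change of all genes by as much as 0.1. Genes near the filter, such as Gsdme, are limited by the unknown depth.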
